A study of Mus musculus with 6 samples.

Results

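The Notch ligands, receptors and Hey targets followed here are 10 mouse genes, the ligands Dll1, Dll4 and Jag1, the receptors Notch1, Notch3 and Notch4, and the targets Hes1, Hey1, Hey2 and Heyl. Every probe set that the array annotation assigns to a single gene of these 10 was kept, which gave 19 of 45037 probe sets for 10 of the 18193 genes that the array names. The spleens came from 3 garlic-fed mice, which received 4% lyophilized raw garlic powder, and 3 control mice, which received 4% cellulose in the same base diet. The labels give all 6 as male C57BL/6J mice, 8 weeks old when the 15 weeks of feeding began, and the RNA of each spleen was measured on 1 Affymetrix array. A probe set is a group of short oligonucleotides that read the same mRNA, and its MAS5 signal is the brightness of the bound RNA on a linear scale.

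Notch is a receptor for ligands on the surface of a neighbouring cell. Binding of a Delta-like or Jagged ligand leads to cleavage of the receptor, first by an ADAM protease and then by gamma-secretase, and the freed intracellular domain enters the nucleus and joins the DNA-binding protein RBPJ. Genes of the Hes and Hey families, which encode repressors of the basic helix-loop-helix class, are among the best known targets. In the spleen the pathway is known for marginal zone B cells, which need Dll1 on stromal cells and Notch2 on the B cell, while Dll4, Notch4 and the Hey genes are known from blood vessels.

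None of the 9 tested genes passed the adjusted test for a difference between the diets, and Hey2 was too dim to be tested. Of the tested genes, Notch4 had the clearest lower signal in garlic-fed spleens, 203 ± 38.2 against 305 ± 46.8 in control spleens (SD, n = 3 each), and all 3 garlic-fed mice lay below all 3 control mice. Dll1 had the clearest higher mean, 1442 ± 233 in garlic-fed spleens against 1156 ± 27.5 in control spleens (SD, n = 3 each), but only 2 of the 3 garlic-fed mice stood above the controls. Hey2 was lower in each garlic-fed mouse, 24.9 ± 10.7 against 56.5 ± 2.89 in control mice (SD, n = 3 each), yet all 6 signals were near the background of the array. Hes1, Jag1, Dll4, Notch1, Notch3, Hey1 and the brightest probe set of Heyl had overlapping groups.

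Background was judged from 43 probe sets of olfactory receptor genes, which the spleen is not known to need. Their single signals, pooled over the 6 arrays, had a median of 20 and a 95th percentile of 83.9. A floor of 23.5, the 20th percentile of all signals, was used before log2 was taken. A probe set was tested when its mean log2 signal was above the 40th percentile, 6.08, which is a signal of 67.5. Of the 19 probe sets 14 were tested, and 11 of these were above the olfactory 95th percentile on every array. The 5 that were not tested are the Hey2 probe set, 2 of the 3 of Heyl and 2 of the 3 of Notch4, and each of them had at least 1 signal under the floor. Levels of different probe sets are not compared with each other, since each binds with its own strength.

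**Figure D1:**
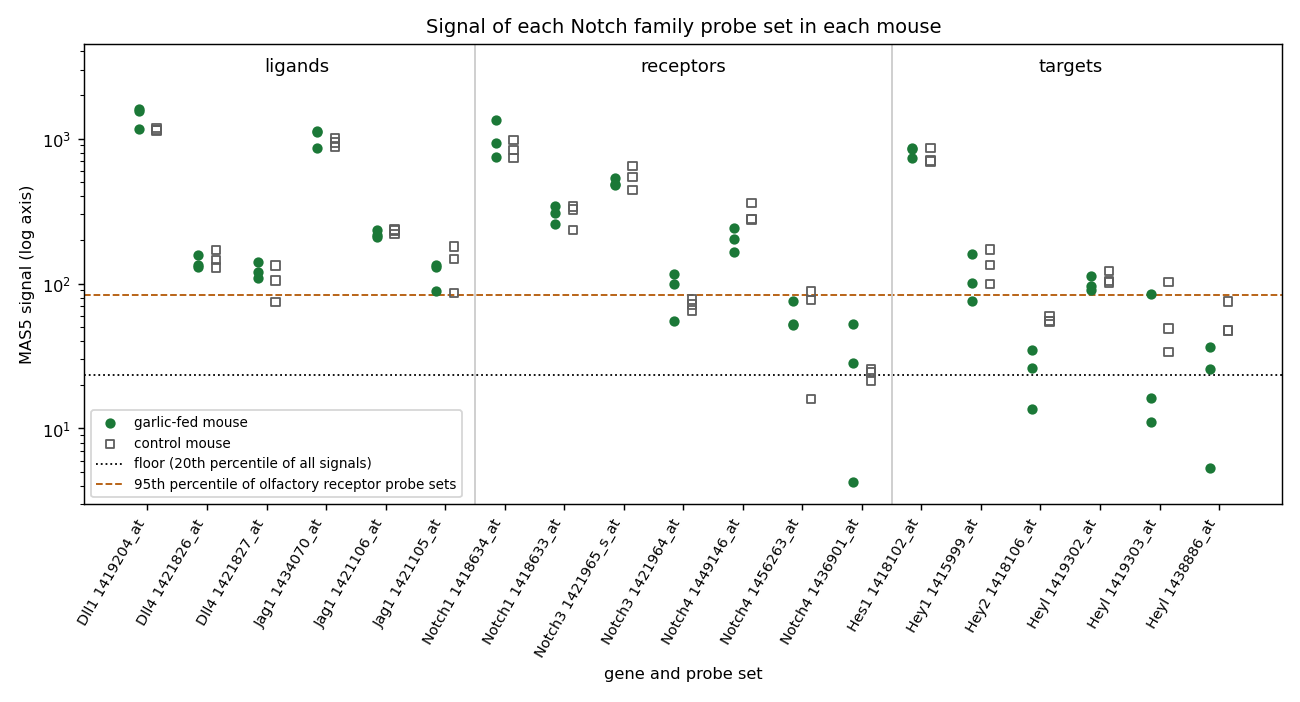
MAS5 signal (log axis) of the 19 probe sets in each mouse, with garlic-fed mice as filled circles left of control mice as open squares. The dotted line is the floor of 23.5 and the dashed line is the olfactory 95th percentile of 83.9, and all 6 Hey2 signals lie under the dashed line.

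The groups were compared with limma, and p was adjusted over 27022 probe sets by the method of Benjamini and Hochberg. At a threshold of 0.05 for this adjusted p, 0 of the 14 tested probe sets were higher in garlic-fed spleens and 0 were lower, where the shares among all probe sets were 0.226% and 0.0111%. At an unadjusted p under 0.05 from limma, 1 was higher (background 5.58%) and 1 was lower (background 5.44%). In 0 probe sets all garlic-fed signals were above all control signals (background 7.52%), and in 1, that of Notch4, all were below (background 9.29%). No tested probe set met the study's criterion of a fold above 1.8 with an unadjusted p under 0.05, which 0.921% of all probe sets met upward and 0.596% downward. The median log2 fold change of the 14 was -0.02, with 7 above 0 and 7 below, and that of all tested probe sets was -0.03. With 3 mice a group, a difference that missed the threshold is not shown to be absent, and the intervals below give the sizes that remain possible.

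**Figure D2:**
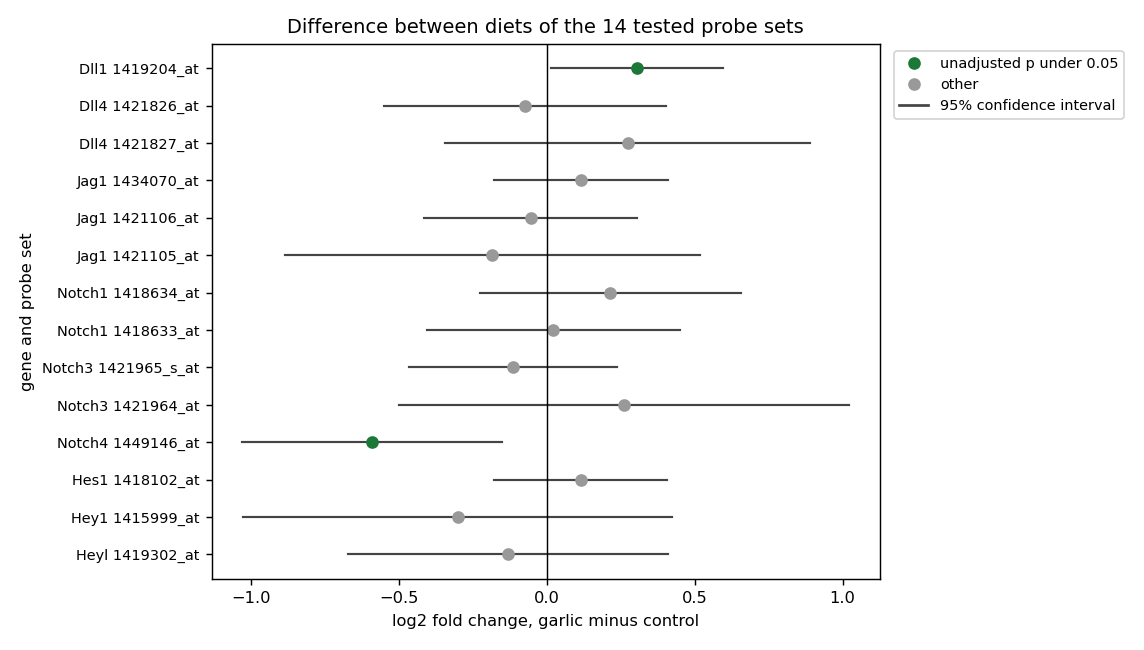
Log2 fold change (garlic minus control) of the 14 tested probe sets, with 95% confidence intervals from limma. Green points have an unadjusted p under 0.05, and they are Dll1 at 0.30 and Notch4 at -0.59, while the intervals of the other 12 include 0.

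Among the ligands, Dll1 is the Delta-like protein that splenic stromal cells present to B cells. Its probe set, 1419204_at, read 1603.9, 1546.2 and 1174.6 in garlic-fed mice 1, 2 and 3, against 1137.9, 1143 and 1187.9 in control mice 1, 2 and 3. Garlic-fed mice 1 and 2 were above every control mouse, garlic-fed mouse 3 lay among the controls, and so the groups overlapped. The ratio of the garlic mean to the control mean was 1.25, and the log2 fold change was 0.30 (standard error 0.13, 95% interval 0.02 to 0.59, adjusted p = 0.428, limma), with an unadjusted p under 0.05. Without garlic-fed mouse 3 the log2 fold change was 0.45 (adjusted p = 0.0954, limma), and without any other single mouse the unadjusted p was no longer under 0.05. Genes of fat tissue were high in the same mice. The median of their log2 signals relative to the control mean was 1.35, 1.54 and -0.51 in garlic-fed mice 1, 2 and 3, against -0.32, 0.24 and 0.09 in control mice 1, 2 and 3. Fabp4, the fatty acid binding protein of adipocytes, read 2600.7, 2783.9 and 840.7 in the garlic-fed mice and 812.1, 1066.9 and 848.4 in the control mice. All 6 tested fat genes were above 0, 1 of them at an unadjusted p under 0.05 (background over all genes 6.89%). The summed signal of the 7 measured was 9111 to 21202 in the garlic-fed mice and 10896 to 11513 in control mice. Relative to the control mean, the medians of smooth muscle, pericyte and stroma genes were 0.09, 0.15 and -0.30 in garlic-fed mice 1, 2 and 3. In control mice 1, 2 and 3 they were -0.04, 0.07 and -0.04. The part of fat tissue or of stroma in the Dll1 signals was not tested.

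A promoter of Dll1 is shown because CACGCG, a sequence that Hes and Hey repressors can bind, lies in it. RefSeq gives 2 starts for Dll1, and the window of the other start holds no match to CACGCG. The 250 bases before the start, from RefSeq on build GRCm38.p6, are chr17:15376933-15377182 on the minus strand, written 5′ to 3′ along the gene, with CACGCG in capitals.
Dll1 promoter: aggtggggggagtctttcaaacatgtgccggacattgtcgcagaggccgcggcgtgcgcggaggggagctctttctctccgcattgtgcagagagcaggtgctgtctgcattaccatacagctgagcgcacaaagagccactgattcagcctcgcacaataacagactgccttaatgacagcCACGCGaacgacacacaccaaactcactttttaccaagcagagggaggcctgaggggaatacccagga
A search of both strands found this match 68 to 63 bases before the start. Of 32851 RefSeq promoter windows of the same 300 bases, 9.27% hold CACGCG, and so do 3 of the 8 windows that were given for 7 of the 10 genes, those of Dll1, Dll4 and Jag1. A match of letters is a description and does not show that a protein binds there.

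Dll4 is the Delta-like ligand of endothelial cells and of the thymus. Its probe set 1421826_at read 130.1, 156.2 and 135.3 in garlic-fed mice, against 128.6, 171.1 and 145.4 in control mice, for a log2 fold change of -0.07 (standard error 0.21, 95% interval -0.55 to 0.40). The other, 1421827_at, read 141.3, 109.7 and 119.2 in the garlic-fed mice and 74.9, 133.1 and 105.1 in the control mice, for a log2 fold change of 0.27 (standard error 0.28, 95% interval -0.34 to 0.89). The groups overlapped in both, and the 2 probe sets of this mRNA differed in sign.

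Jag1, the Jagged ligand found on vascular and stromal cells, was read by 3 probe sets. The brightest, 1434070_at, read 1109.6, 1122.9 and 857.5 in garlic-fed mice, against 943.4, 1005.4 and 885.6 in control mice. As with Dll1, garlic-fed mice 1 and 2 were above the controls and garlic-fed mouse 3 was not, here below all of them. Its log2 fold change was 0.12 (standard error 0.13, 95% interval -0.18 to 0.41). The probe set 1421106_at read 234.6, 216.1 and 210.6 in the garlic-fed mice and 219.1, 231.7 and 235.8 in the control mice, and 1421105_at read 130.6, 133.7 and 88.6 in garlic-fed mice, against 147.2, 85.8 and 179.6 in control mice. Both had overlapping groups and log2 fold changes on the other side of 0, -0.06 (standard error 0.16) and -0.18 (standard error 0.31). The adjusted p values of the 5 probe sets of Dll4 and Jag1 lay between 0.786 and 0.940 in limma.

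Among the receptors, Notch4 is expressed mainly by endothelial cells. Its brightest probe set, 1449146_at, read 202.6, 241.6 and 165.2 in garlic-fed mice, against 358.6, 278.8 and 276.3 in control mice. Every garlic-fed signal was below every control signal, with the nearest pair 241.6 in a garlic-fed mouse and 276.3 in a control mouse. The garlic mean was 0.667 times the control mean, and the log2 fold change was -0.59 (standard error 0.20, 95% interval -1.03 to -0.15, adjusted p = 0.292, limma), with an unadjusted p under 0.05. Without control mouse 1 the log2 fold change was -0.47 and the unadjusted p was no longer under 0.05. It stayed under 0.05 without any other single mouse, and the log2 fold change lay between -0.72 and -0.45. The other 2 Notch4 probe sets were not tested. They read 75.4, 52.8 and 51.9 in the garlic-fed mice and 77, 16 and 88 in the control mice for 1456263_at, and 4.3, 52.5 and 28.1 in garlic-fed mice, against 25.6, 21.5 and 24.4 in control mice for 1436901_at. Neither kept the groups apart, and both were near the background.

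In whole spleen RNA, fewer cells of a type and less of an mRNA per cell cannot be told apart, so endothelial genes are given beside Notch4. Of 19 endothelial genes, all tested, 0 passed the adjusted test, and the median log2 fold change was -0.05. At an unadjusted p under 0.05, 0 of the 19 were higher and 1 was lower (background over all genes 6.89% and 6.24%). Their summed signal was 11579 to 13225 in the garlic-fed mice and 12200 to 13052 in control mice. The mean of their log2 signals relative to the control mean was 0.08, -0.09 and -0.23 in garlic-fed mice, against -0.01, -0.01 and 0.02 in control mice. The mean log2 signal of the same 19 genes on each array, not centred on the controls, was then subtracted from the log2 signals. On this scale Notch4 was at -1.26, -0.84 and -1.25 in garlic-fed mice, against -0.35, -0.71 and -0.75 in control mice. The groups again did not overlap. On the same scale Dll1, whose groups overlapped as deposited, was at 1.73, 1.83 and 1.58 in garlic-fed mice, against 1.31, 1.32 and 1.35 in control mice. Every garlic-fed value was then above every control value, and the groups of the other 12 tested probe sets overlapped. The endothelial mean that was subtracted was lowest in garlic-fed mouse 3, where it was -0.23 relative to the control mean. As deposited, the Dll1 signal of that mouse lay among the controls. No share over all probe sets is given on this scale, so neither separation can be set against a background. The lower endothelial gene was Sox17, a transcription factor of arterial endothelium, at -0.47 (adjusted p = 0.278, limma), and next came Clec14a at -0.65 and Pecam1, the adhesion molecule CD31, at -0.20. Not all leaned this way, as 5 of the 19 were above 0, among them Esam at 0.24, Robo4 at 0.14 and Tie1 at 0.12. Emcn, the endothelial sialomucin endomucin, read 110.5, 108 and 99.5 in the garlic-fed mice and 85.8, 71.8 and 77.1 in the control mice, at 0.44, with every garlic-fed signal above every control signal. Cdh5, the cadherin of endothelial junctions, read 402.6, 396.6 and 222.8 in the garlic-fed mice and 445.9, 322.7 and 467.6 in the control mice.

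All 5 tested genes of the arterial endothelium list had values below 0, with a median of -0.18, and 2, of which Sox17 is also in the endothelial list, were lower at an unadjusted p under 0.05, both without overlap. Over all 12262 tested genes, 6837 were below 0, 6.24% were lower at this p and 10.7% had all garlic-fed signals below all control signals. The lowest p was that of Nrp1, a co-receptor for VEGF and semaphorins that other spleen cells also carry. Nrp1 read 1299.7, 1285.3 and 1278.3 in garlic-fed mice, against 1780, 1687 and 1655.7 in control mice, without overlap, at -0.41 (adjusted p = 0.126, limma). The others were Sox17, Gja4 at -0.18, Efnb2 at -0.09 and Cxcl12 at -0.07. Gja5, a connexin of arteries, was at 1.8 to 6.2 on all 6 arrays and was not tested, nor was Bmx. The part of arterial vessels in the Notch4 signals was not tested.

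The 250 bases before the Notch4 start are shown because Notch4 is the tested gene whose groups did not overlap. They are chr17:34564045-34564294 on the plus strand of GRCm38.p6, from RefSeq and written 5′ to 3′.
Notch4 promoter: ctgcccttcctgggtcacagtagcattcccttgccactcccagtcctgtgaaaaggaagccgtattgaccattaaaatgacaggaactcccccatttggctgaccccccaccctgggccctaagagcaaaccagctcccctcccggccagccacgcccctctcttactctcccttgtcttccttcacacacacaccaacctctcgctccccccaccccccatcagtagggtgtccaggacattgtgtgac
None of the 5 motifs searched on both strands was found in its window of 300 bases, neither the RBPJ site CGTGGGAA, its core TGGGAA, which lies within that site, the E box CACGTG, the Hes and Hey site CACGCG nor the GATA site AGATAA. These letters occur in 0.734%, 25.6%, 7.15%, 9.27% and 11.2% of the 32851 windows, in the same order.

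Notch1 is the receptor that commits lymphoid precursors to the T cell lineage. Its brighter probe set, 1418634_at, read 925.9, 1336 and 750.8 in the garlic-fed mice and 732.8, 832 and 975.3 in the control mice. Garlic-fed mouse 2 was highest, and the other garlic-fed mice lay within the range of the controls. The log2 fold change was 0.21 (standard error 0.20, 95% interval -0.23 to 0.66, adjusted p = 0.764, limma), and without garlic-fed mouse 2 it was -0.01. The second probe set, 1418633_at, read 256.7, 305.9 and 342.6 in garlic-fed mice, against 323.3, 339.3 and 234.5 in control mice, for a log2 fold change of 0.02 (standard error 0.19).

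Notch3 is the receptor of vascular smooth muscle cells and pericytes. Its probe set 1421965_s_at, whose suffix marks probes that can match several transcripts, read 531.3, 484.4 and 475.6 in the garlic-fed mice and 544.1, 440.4 and 646.7 in the control mice. The garlic-fed values lay inside the range of the controls, for a log2 fold change of -0.11 (standard error 0.16, 95% interval -0.47 to 0.24). The probe set 1421964_at read 115.7, 99.2 and 54.8 in garlic-fed mice, against 77.8, 71.7 and 65.4 in control mice, and only 2 of these 6 signals were above the olfactory 95th percentile. Its log2 fold change was 0.26 (standard error 0.34, 95% interval -0.50 to 1.02). Of 14 tested genes of smooth muscle, pericytes and stroma, 0 passed the adjusted test, and the median was 0.00. At an unadjusted p under 0.05, 0 of the 14 were higher and 1 was lower (background over all genes 6.89% and 6.24%). The lower one was Cspg4, the NG2 proteoglycan of pericytes, at -0.999 (adjusted p = 0.280, limma), which read 99.5, 68.7 and 48.5 in the garlic-fed mice and 155.3, 106.3 and 160.2 in the control mice. Next by p were Tlx1 and Pdgfrb, both at -0.26 with overlapping groups.

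Among the targets, Hes1 is a repressor that many cell types make in response to Notch. Its probe set, 1418102_at, read 865.8, 852.1 and 732.4 in garlic-fed mice, against 708, 862.9 and 696.7 in control mice. The groups overlapped, with control mouse 2 beside the higher garlic-fed mice, and the log2 fold change was 0.11 (standard error 0.13, 95% interval -0.18 to 0.41, adjusted p = 0.817, limma).

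Hey1, a repressor of developing vessels and other tissues, read 101.2, 75.6 and 160.5 in the garlic-fed mice and 172, 99.4 and 134.6 in the control mice with probe set 1415999_at. Both groups spread widely and overlapped, and 5 of the 6 signals were above the olfactory 95th percentile. The log2 fold change was -0.30 (standard error 0.33, 95% interval -1.03 to 0.42, adjusted p = 0.802, limma). The lowest Hey1 signal was in garlic-fed mouse 2 and highest in control mouse 1, the mice with the most pancreatic signal of their groups. Without both mice the log2 fold change was 0.14. Leaving out the lowest garlic-fed and the highest control signal could only raise it. The part of pancreatic signal cannot be read from this value and was not tested.

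Hey2 encodes a Hey repressor of heart and vessel development, and its zebrafish counterpart, gridlock, is needed for the aorta. Its only probe set, 1418106_at, read 26, 35 and 13.6 in garlic-fed mice, against 54.6, 55 and 59.8 in control mice. All garlic-fed signals were below all control signals, and the controls lay close together. All 6 signals were under the olfactory 95th percentile, 6 of the 43 olfactory receptor probe sets had a mean at or above the Hey2 mean of the control mice, and garlic-fed mouse 3 was under the floor. No fold change is therefore given for Hey2. When all 45037 probe sets were tested without the filter, Hey2 had an unadjusted p under 0.05 and an adjusted p of 0.304 in limma, and an adjusted p of 0.548 when the floor was left out too. With the floor raised to the 40th percentile all 6 values lay at the floor. Of the 18015 probe sets under the filter, 5.88% had all garlic-fed signals below all control signals and 4.17% had all above. Among the 5 of the Notch genes there, 2 were all below and 0 all above. Of the 43 olfactory receptor probe sets, 5 were all below and 1 was all above. Counted over all 19 probe sets without the filter, 3 had every garlic-fed signal below the controls (background 7.93%) and 0 had every one above (background 6.18%), and 3 were lower (background 4.69%) and 0 higher (background 3.99%) at an unadjusted p under 0.05. These 3 are Hey2, 1 of the dim probe sets of Heyl and the brightest of Notch4.

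**Figure D3:**
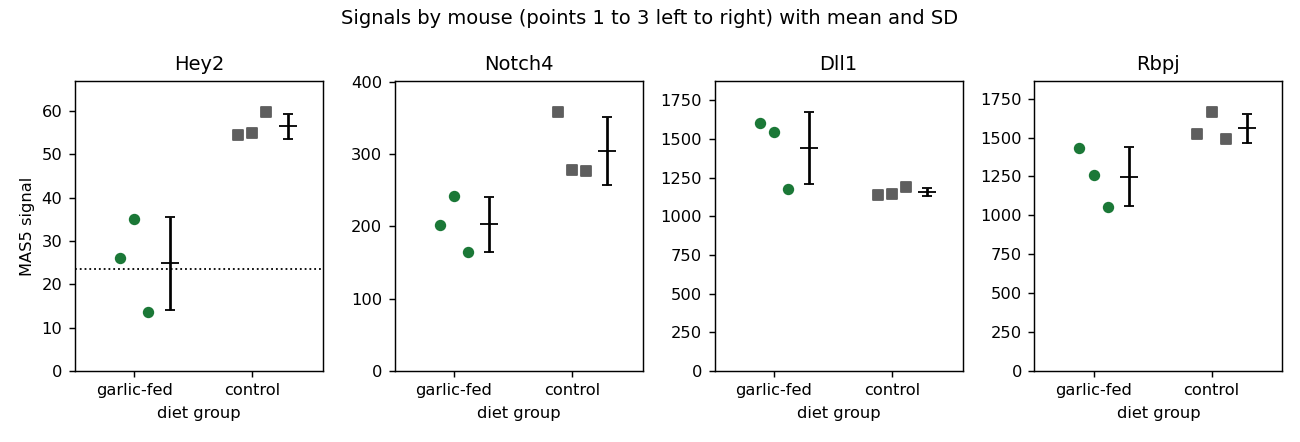
MAS5 signals of Hey2, Notch4, Dll1 and Rbpj in garlic-fed mice (circles, left) and control mice (squares, right), with mice 1 to 3 from left to right and bars for mean ± SD (n = 3 each). The groups do not overlap for Hey2, Notch4 and Rbpj, they overlap for Dll1, and the dotted line in the Hey2 panel is the floor of 23.5.

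The Hey2 promoter is shown because it holds the RBPJ site CGTGGGAA at 2 places. The stretch is chr10:30842781-30843033 on the minus strand of GRCm38.p6, from RefSeq, 250 bases before the start and 3 after it, written 5′ to 3′ along the gene, with the site and its reverse complement TTCCCACG in capitals.
Hey2 promoter: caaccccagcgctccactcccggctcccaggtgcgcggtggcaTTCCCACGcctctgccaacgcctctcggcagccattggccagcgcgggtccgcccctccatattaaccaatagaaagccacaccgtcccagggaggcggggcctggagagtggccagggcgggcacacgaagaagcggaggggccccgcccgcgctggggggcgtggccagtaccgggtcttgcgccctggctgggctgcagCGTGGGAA
The upstream match lies on the opposite strand, 207 to 200 bases before the start, and the other runs from 5 bases before the start to the last base shown. Of the 32851 windows 0.734% hold this site and 4, or 0.0122%, hold it at 2 places. The Hey2 window was the only one of the 8 given for these genes that held it. No window was given for the targets Hes1, Hey1 and Heyl. Hey2 was therefore the only target searched, and it cannot be set apart from them by this site. The match says nothing about whether RBPJ was bound in these spleens.

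Heyl, the Hey-like repressor found in vascular smooth muscle, was read by 3 probe sets. The brightest, 1419302_at, read 89.9, 96.9 and 112.8 in garlic-fed mice, against 122.2, 101.7 and 104.1 in control mice, all above the olfactory 95th percentile. The groups overlapped, and the log2 fold change was -0.13 (standard error 0.24, 95% interval -0.67 to 0.41, adjusted p = 0.895, limma). The other 2 were not tested. The probe set 1438886_at read 5.3, 36.4 and 25.9 in the garlic-fed mice and 47.5, 75 and 47.3 in the control mice, all below the olfactory 95th percentile, with every garlic-fed signal below every control signal (adjusted p = 0.427 from limma without the filter). The probe set 1419303_at read 16.2, 11.1 and 84.2 in garlic-fed mice, against 102.3, 33.7 and 48.9 in control mice, with overlap.

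The rest of the pathway was read from a list of 61 further genes. Of these, 57 had a named probe set and 48 were tested, each by its brightest probe set. None passed the adjusted threshold in limma in either direction, which 0.343% of all 12262 tested genes passed upward and 0.00816% downward. With p left unadjusted and under 0.05, 4 of 48 were higher, 8.33% against 6.89% of all genes, and 4 were lower, 8.33% against 6.24%. In all, 22 were above 0 and 26 below. All garlic-fed signals were above all control signals in 4 of the 48 genes, 8.33% against 9.13% of all genes, and all were below in 9, or 18.8% against 10.7%. In 9 of the 57 genes with a probe set the signal was too low for the test.

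Rbpj, the DNA-binding protein on which the pathway converges, was the nuclear gene with the lowest p. It read 1433.9, 1259.5 and 1053.8 in garlic-fed mice, against 1523.8, 1664.1 and 1489.8 in control mice. Every garlic-fed mouse was below every control mouse, and the log2 fold change was -0.33 (standard error 0.13, adjusted p = 0.372, limma). The histone acetyltransferase gene Kat2b was at 0.22 (adjusted p = 0.426) and the corepressor gene Ctbp1 at 0.19 (adjusted p = 0.453, both limma), each without overlap.

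Of the 2 tested genes among the other receptors and ligands, Jag2, the second Jagged ligand, read 151.5, 105.4 and 146 in the garlic-fed mice and 113.7, 77.3 and 59.9 in the control mice, with overlap, at 0.72 (standard error 0.30, adjusted p = 0.428, limma). Notch2, the receptor of marginal zone B cells, read 3415.8, 3040.6 and 3202.2 in garlic-fed mice, against 3794.5, 3568.6 and 3259 in control mice, with overlap, at -0.14 (standard error 0.09). Dll3, Dlk1, Dlk2 and Dner were not tested.

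In the other steps of the pathway, only Epn1, an epsin of ligand endocytosis, had an unadjusted p under 0.05. It read 1076.3, 1043.5 and 1137.2 in the garlic-fed mice and 957.7, 897.7 and 851.5 in the control mice, at 0.27 (standard error 0.11, adjusted p = 0.393, limma). Next to it Mib1, a ubiquitin ligase for Notch ligands, was at -0.27 and Neurl3 at -0.29, both without overlap. Of the cleavage genes, Aph1a and Ncstn, subunits of gamma-secretase, were at -0.21 and -0.24, and Aph1b at 0.25. The fringe enzymes that modify Notch were close to 0, with Mfng at 0.11 and Lfng at -0.11, and so was the glucosyltransferase gene Poglut1 at -0.08.

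Of 8 tested genes among the other targets, 6 were below 0 and 3 of these had an unadjusted p under 0.05, all without overlap. Of all 12262 tested genes 6837 were below 0, 6.24% were lower at an unadjusted p under 0.05 and 10.7% had every garlic-fed signal below the controls. Hes5 read 155, 128.9 and 109.7 in garlic-fed mice, against 221.8, 189.7 and 155.4 in control mice, at -0.53 (adjusted p = 0.435, limma). Its nearest values were 155 in a garlic-fed mouse and 155.4 in a control mouse. Hes6, which can counteract Hes1, read 702.7, 737.8 and 628.1 in the garlic-fed mice and 817.5, 786.3 and 896.9 in the control mice, at -0.27 (adjusted p = 0.440, limma). Id3, an inhibitor of basic helix-loop-helix proteins, was at -0.26 (adjusted p = 0.433, limma). Hes2, Hes3 and Hes7 were not tested.

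**Figure D4:**
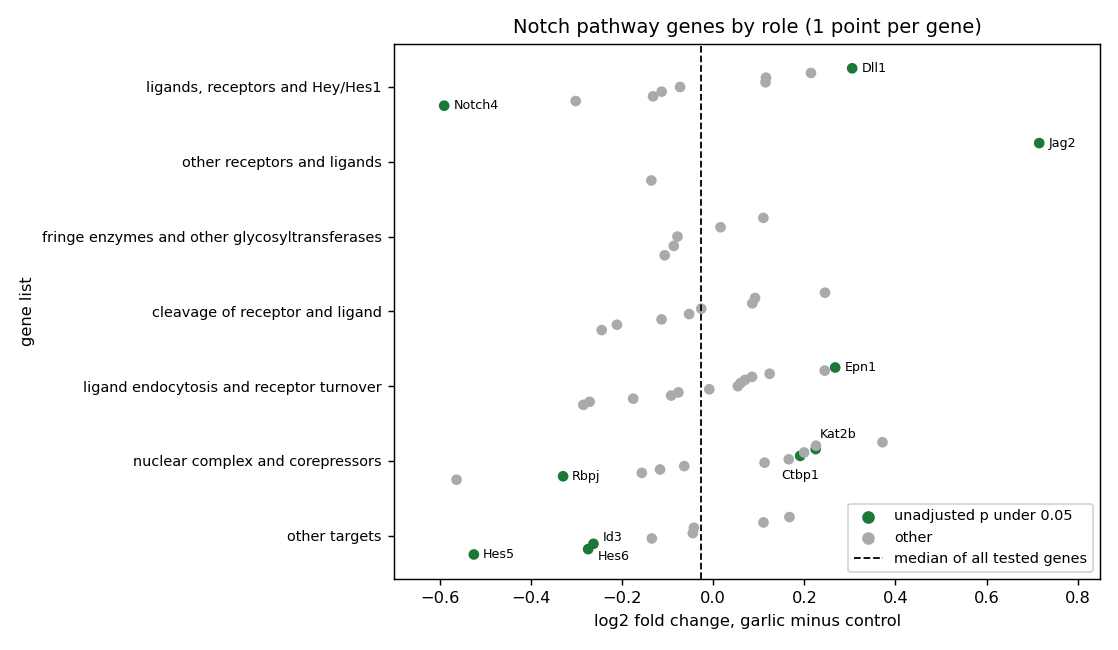
Log2 fold change (garlic minus control) of each tested pathway gene by role, 1 point for each gene, with the 9 tested genes of the ligands, receptors and Hey or Hes1 targets in the top row. Green points have an unadjusted p under 0.05, none passed the adjusted test, and the dashed line is the median of all tested genes, -0.03.

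In the cells known to depend on Notch, no listed gene passed the adjusted threshold. Of 10 tested genes of marginal zone B cells, the median was -0.07 and 1 was lower at an unadjusted p under 0.05 (background over all genes 6.24%). It was Mzb1, a chaperone of immunoglobulin assembly, at -0.23 (adjusted p = 0.401, limma). Next by p were S1pr1 at -0.25 and Dtx1, itself a Notch target, at 0.17, and Dtx1 read 4276.5, 3961 and 2912.3 in garlic-fed mice, against 3507.7, 2737.6 and 3628.3 in control mice. Of 5 tested genes of Notch-dependent dendritic cells, the median was -0.04 and 1 was lower at an unadjusted p under 0.05 (background over all genes 6.24%). It was Flt3, the receptor for the growth factor of these cells, at -0.27 (adjusted p = 0.440, limma), followed by Itgax at -0.21 and Esam at 0.24.

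Genes of other cells describe the tissue as a whole. All array medians lay between 119.7 and 132.2, and defining genes of the labelled tissue were present, such as Cd79a of B cells, at 8894 to 11193 on all arrays, and Tlx1 of spleen mesenchyme, at 368 to 532. Erythroblast genes were higher, with a median of 1.33. The adjusted threshold was passed by 5 of 9 tested genes (Ank1, Sox6, Tfrc, Cpox and Kel), and upward by 0.343% of all tested genes. All 5 tested B cell genes were below 0, with a median of -0.16 (Cd22 and Cd79b at -0.23, Cd79a at -0.16), and so were all 6 tested T cell genes, with a median of -0.14 (Cd3e at -0.21, Cd4 at -0.22, Cd3g at -0.19). Pancreatic genes varied most, with a summed signal of 2326 to 38915 in the garlic-fed mice and 19989 to 154641 in control mice, the highest being garlic-fed mouse 2 and control mouse 1. Of 14 tested, 13 were lower at an unadjusted p under 0.05 (background over all genes 6.24%) with overlapping groups, for example Ctrl at -3.99, Cel at -4.52 and Cpa1 at -5.44. All 13 were highest in garlic-fed mouse 2 and control mouse 1 of their groups, and so they are not separate observations. Without the filter their unadjusted p in limma lay between 0.0530 (Ctrl) and 0.101 (Reg1). Of the fat genes next to Fabp4, Adipoq was at 0.95 and Scd1 at 0.31. Notch4 was also highest in these mice within each group, and without both of them its log2 fold change was -0.60 (adjusted p = 0.837, limma, unadjusted p under 0.05). The part of the changed cell mixture in the values of the Notch genes was not tested.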

How the data were processed

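Spleen RNA of 3 garlic-fed and 3 control mice was measured on 1 Affymetrix array each, and the labels call the mice of a group biological replicates. The deposited values are signal intensities made by the authors with MAS5, on a linear scale, and a trimmed mean of 500 (2% left out at each end) was read from them. The MAS5 version is not given in the sources used here. Without the 64 control probe sets, 45037 were used, of which 34945 have 1 gene, 932 several and 9160 none in the annotation. Signals were floored at 23.5, log2 was taken, and 27022 probe sets above the filter were tested in R 4.3.3 by limma 3.58.1 (a linear model fit and eBayes with its mean-variance trend, garlic minus control, Benjamini-Hochberg adjustment). Named are all probe sets of the 10 genes and, of each further list, the genes past the adjusted threshold or, where fewer than 3 passed, those of lowest p up to 3. Efnb2, Cxcl12, Cdh5, Emcn, Robo4, Tie1 and listed genes that were not tested are named besides, chosen after their values were seen. The members and lists were chosen with earlier results of these data known. The number of arrays and, for dim probe sets, the background limit the precision. Alternatives were other normalizations, floors, filters and variance models, the methods' test, a replicate block and leaving out each array. Promoter windows were searched in Python 3.11.15, and figures were drawn with matplotlib 3.10.9. The procedure was tested on simulated data. The correlations of the deviations of same-numbered mice were 0.00, -0.18 and 0.08. They do not show that the numbers pair the mice, and with 3 mice a group they cannot exclude it.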

Additional observations from a re-analysis of the deposited data

How the results depend on the processing

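No probe set of the 10 genes and no listed pathway gene passed the adjusted threshold under any alternative run. The 1 higher probe set at an unadjusted p under 0.05 (Dll1) became 0 without the filter, without the variance trend and with the methods' test on log2 or linear signals, and 0 to 2 without single mice. The 1 lower (Notch4) became 3 without the filter, with or without the floor, and 0 to 1 without single mice, and 2 dim probe sets then met the study's criterion downward, against 0. Over all probe sets, the 64 past the adjusted threshold became 151 with median centring, 11 without the filter, 31 without filter and floor, 0 without the trend, 0 with either form of the methods' test, and 0 to 111 without single mice, with 0 without control mouse 1 or 2, 33 without control mouse 3 and 111 without garlic-fed mouse 1. With the replicate block it became 295. Without the most pancreatic array of each group, an alternative chosen after seeing the data like that without filter and floor, it became 36, and the higher count at unadjusted p became 0. The median of -0.02 became 0.029 with quantile normalization, 0.061 with median centring, -0.055 without the filter, -0.073 without filter and floor, 0.115 with a stricter filter and -0.027 to 0.078 without single mice. Signs turned for Dll4 1421826_at (0.00418 with quantile normalization, 0.00513 with median centring, 0.10 as the mean of its probe sets, -0.171 to 0.0349 without single mice) and Jag1 (1421106_at 0.023 with median centring, 1421105_at -0.491 to 0.0414 without single mice, -0.041 as the mean). They also turned for Notch1 (1418634_at -0.0123 to 0.403 and 1418633_at -0.144 to 0.133 without single mice), Notch3 1421965_s_at (-0.257 to 0.0205, and 0.074 as the mean), and, without the most pancreatic arrays, Notch1 (-0.112), Hey1 (0.14) and Aph1b (-0.062). The causes were not tested. Of the other comparisons, 919 kept direction and side of the threshold or moved by less than the spread. Dim signals limit Hey2, Heyl and Notch4 most, since 5 of their probe sets have values under the floor.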
